A study of Mus musculus with 8 samples.

Results

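The genes described here are 37 endothelial identity genes, named as a list because they mark cells that line blood vessels, and followed across 8 microarrays of mouse bone marrow cells. Members were found by symbol among the non-control probes. They had 47 of the 55661 probes kept, and each was represented by the probe with the highest mean level. Gpr116 and Eltd1 are the array's names for the genes now called Adgrf5 and Adgrl4.

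The arrays were of KSL cells and of Gr-1+/Mac-1+ cells (Gr, the granulocyte fraction), both sorted by flow cytometry from the bone marrow of mice 6 weeks old on a mixed background (B6/CBA and others). The groups were KSL cells of Vav-Etv2 mice, KSL cells of control mice, Gr cells of Vav-Etv2 mice and Gr cells of control mice, with 2 arrays each. In Vav-Etv2 mice an Etv2 transgene was switched on by a Vav-iCre transgene, so that its expression depends on Cre under a blood cell promoter, and the labels do not say which of these transgenes, if any, the controls carried. KSL is the usual name for the lineage-negative, Kit-positive and Sca-positive progenitor fraction, and the labels give only the abbreviation. Whether the 2 arrays of a group came from separate mice or pools is not in the labels, and the p-values cover the spread between these samples alone, which may be technical.

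Etv2 is an ETS family transcription factor that acts early in the embryo to specify the precursors of blood and vessels, and is normally shut off afterwards. Endothelial cells are then held in their identity by other ETS factors and by the SoxF factors, which bind enhancers of genes for junctions, receptors and secreted proteins. Several endothelial genes are also used by adult blood stem and progenitor cells, by megakaryocytes or by macrophages, so a gene on the list need not be silent in bone marrow.

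A level below is the log2 of an array's processed signal for a probe minus the 75th percentile of that array's signals, so 0 is the 75th percentile. Between 47.7% and 55.5% of the probes of an array were well above background by the scanner software's flag. Levels of different genes come from different probes and are not compared with each other.

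Etv2 itself had levels of 0.19 and -1.24 in Vav-Etv2 KSL cells, against -4.37 and -4.73, not well above background, in control KSL cells. In Gr cells it was at -0.55 and -1.29 on the Vav-Etv2 arrays and at -4.48 and -0.54 on those labelled control. The array labelled Gr control 2 therefore carried Etv2 signal no lower than that of the Vav-Etv2 Gr arrays. By the other Etv2 probe it had -0.85, against -2.33 and -1.88 on the Vav-Etv2 Gr arrays and -5.81 on Gr control 1. It is called by its label below. The Gr arrays with number 1 had high Xist, the X-inactivation RNA of female cells (0.35 in Vav-Etv2 and 0.27 in control), and those with number 2 had high Ddx3y, a Y-linked gene (1.36 and 1.39). All 4 KSL arrays had high Xist (2.43 and 2.69 in Vav-Etv2, 2.12 and 2.41 in control) and Ddx3y not well above background. The pattern of the Gr arrays with number 2 was thus on no KSL array, which bears on every comparison of KSL with Gr cells. All 8 arrays were on 1 slide, with the KSL arrays in 1 row and the Gr arrays in the other, so row and cell type cannot be told apart.

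The 9 KSL markers were well above background on all 4 KSL arrays. So were the 12 measured granulocyte markers, whose linear levels summed to 546 and 2090 in Vav-Etv2 KSL cells and to 2010 and 1900 in control KSL cells, against 9440 and 5310 in Vav-Etv2 Gr cells and 11100 and 5560 in control Gr cells. In bulk samples such as these, fewer cells of a type and less RNA per cell cannot be told apart.

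Vav-Etv2 KSL array 1 had most endothelial identity genes far above the controls, and array 2 had fewer of them and by less. Of the 37 members, 35 were well above background on array 1 and 30 on array 2, against 27 and 28 on the control KSL arrays. The median level of the members was 1.73 and -0.81 on the Vav-Etv2 arrays and -1.30 and -1.58 on the control arrays. Against the mean of the controls, 25 of the 37 members were at least 1 log2 unit higher on array 1 and 10 on array 2, beside 8.93% and 3.76% of all 36081 genes. On the same scale 2 and 3 members were at least 1 lower, beside 9.28% and 6.93% of all genes. The control arrays were close to each other: the SD of the difference between them was 0.494 over the members, against 2.16 between the Vav-Etv2 KSL arrays.

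No member passed the test. In limma's fit of all 8 arrays, 0 of the 32 members tested had a Benjamini-Hochberg adjusted p under 0.05 for Vav-Etv2 against control KSL cells, the lowest being 0.467, while 0.0172% of the 23231 genes tested did. The fit pools the spread of all groups, so these p-values also carry the spread between the Gr arrays. In a limma fit of the KSL arrays alone, the lowest adjusted p of a member was 0.165. Unadjusted p was under 0.05 for 10 members and for 1725 of all genes. The differences were positive for 28 members and negative for 4, with a median of 1.46 beside 0 over all genes tested. Ptprb was well above background on Vav-Etv2 arrays alone and Cdh5 on only 1 control array, so both needed Vav-Etv2 arrays to be tested. With a filter on all 8 arrays, which left 15 members, the median was 0.90 beside 0.02 over all genes. Without array 1 the members' median was 0.48, and without array 2 it was 2.27. Both Vav-Etv2 arrays were above both controls for 22 of the 37 members, beside 18.9% of all genes, and below both for 3, beside 27.4%. These counts ask for no margin and no signal above background. Among the 22, Gpr116 and Lyve1 were not well above background on array 2, and Emcn there was at -1.0 against -1.02 in the higher control. Among the 3, Aplnr was well above background on no KSL array. The 5 members not tested were Sele, well above background on no array, and Sox7, Sox17, Gpr116 and Podxl, each so on Vav-Etv2 KSL array 1 alone.

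**Figure D1:**
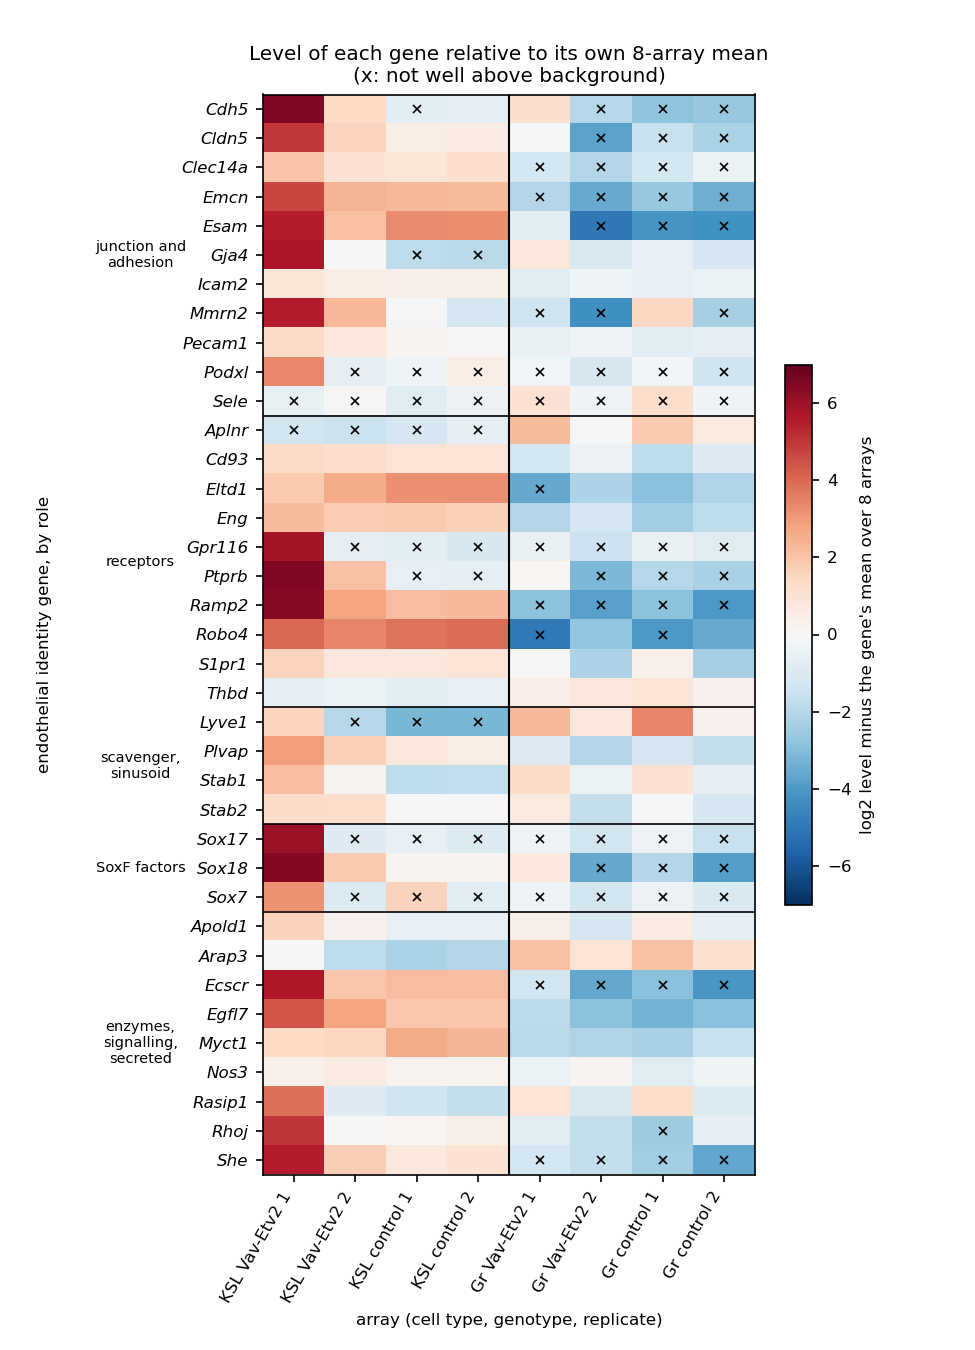
Level of each of the 37 endothelial identity genes on each of the 8 arrays, as the log2 level minus the gene's own mean over the arrays (red above, blue below), with a cross where the probe was not well above background. The reddest column is KSL Vav-Etv2 1, where 35 of 37 genes were well above background, and the Gr columns are mostly blue.

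Among the genes of junctions and adhesion, 8 of 11 were at least 1 higher on Vav-Etv2 KSL array 1 and 4 on array 2. Cdh5, the cadherin of endothelial adherens junctions (probe at chr8:106668159-106668218, build mm9), had levels of 3.53 and -1.59 in Vav-Etv2 KSL cells, against -3.74 and -3.65 in control KSL cells, where 1 of the 2 arrays was well above background. The Vav-Etv2 arrays did not overlap the controls, and stood further from each other than array 2 did from the controls. The difference was 4.67 ± 1.65 (SE) with a limma adjusted p of 0.579.

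Gja4, a connexin of arterial gap junctions (chr4:126988848-126988907), was at 3.42 and -2.26 in Vav-Etv2 KSL cells and at -4.0 and -4.13 in controls. Neither control array had it well above background, and the difference of the means is therefore given as a bound. It was at least 24.8-fold (log2 difference 4.65 ± 1.66 SE, limma adjusted p 0.584). Such a bound is for the means of the 2 arrays of each group and leaves out their spread, so it is not a minimum for each array. In the group at background, it takes the higher of the probe's own level and the array's lowest well-above-background level. A dim array in the other group keeps its own level, and the value is then not a strict bound. Mmrn2, a matrix protein deposited around vessels (chr14:35216855-35216914), was at 2.91 and -0.31 in Vav-Etv2 KSL cells, against -2.73 and -3.77 in controls. Its difference was 4.55 ± 1.61 (SE, limma adjusted p 0.579), and both Vav-Etv2 arrays were above both controls.

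Smaller separations were seen for other junction genes. Pecam1, an adhesion molecule of endothelium that platelets and leukocytes share, had 1.10 and 0.49 in Vav-Etv2 KSL cells and -0.07 and -0.14 in controls (difference 0.90 ± 0.31 SE, limma adjusted p 0.563). Cldn5, the claudin of endothelial tight junctions, had 1.72 and -1.69 against -2.70 and -2.68. For both genes the groups did not overlap.

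For Emcn array 2 was level with the controls, and for Esam and Clec14a it was not above both. The sialomucin Emcn had 1.34 and -1.0 in Vav-Etv2 KSL cells and -1.02 and -1.14 in controls (1.25 ± 0.82 SE, limma adjusted p 0.924). Esam, a junctional adhesion molecule also found on blood stem cells, had 3.46 and 0.09 against 1.29 and 1.21, so that array 1 was above the controls and array 2 below them (0.52 ± 1.49 SE, limma adjusted p 1). Clec14a, a surface lectin that binds Mmrn2, had -2.67 and -3.64 against -3.81 and -3.46 (0.48 ± 0.48 SE, limma adjusted p 1), and its other probe was well above background on no array. Icam2, a leukocyte-binding adhesion molecule, had 5.41 and 5.09 against 4.97 and 5.00. Podxl, a sialomucin, had -2.33 on array 1 and at most -5.22 on the other 3 KSL arrays, and Sele, the selectin of activated endothelium, lay between -6.27 and -5.37 on all 4.

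The SoxF transcription factors, which set arterial and lymphatic identity, were well above background together on Vav-Etv2 KSL array 1 alone. Sox17 (chr1:4481503-4481562) had 0.60 and -6.35 in Vav-Etv2 KSL cells and -6.01 and -6.38 in controls, and its other probe gave -0.25 and -6.06 against -6.13 and -6.47. Sox17 on array 2 was thus at the level of the controls, in contrast to Sox18. Sox18 (chr2:181404789-181404848) had 3.05 and -1.50 in Vav-Etv2 KSL cells, against -3.14 and -3.15 in controls, a difference of 3.91 ± 1.79 (SE, limma adjusted p 0.746). Sox7 had -2.54 and -6.62 against -4.04 and -6.45, with only array 1 well above background.

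Receptors divided into a few far above the controls on array 1 and many near them. Only 3 of 10 were at least 1 higher on array 1 and 1 of 10 on array 2. Ptprb, a receptor phosphatase that acts on the endothelial cadherin and the angiopoietin receptor (chr10:115820912-115820971), had 2.61 and -1.82 in Vav-Etv2 KSL cells, against -4.44 and -4.46, not well above background, in controls. As a bound on the means, its level was 23.5-fold or more above the controls (log2 difference 4.84 ± 1.53 SE, limma adjusted p 0.504). Its other probe was well above background on array 1 alone. Gpr116, an adhesion G protein-coupled receptor, had 0.46 and -6.06 against -6.08 and -6.47. Ramp2, the partner that makes the calcitonin-like receptor respond to adrenomedullin, had 3.29 and -0.30 against -0.94 and -0.83 (2.38 ± 1.09 SE, limma adjusted p 0.739).

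Eng, Robo4, Cd93, Thbd and S1pr1 lay near their control levels. Eng, a co-receptor for TGF-beta family ligands, had 2.83 and 2.40 in Vav-Etv2 KSL cells and 2.47 and 2.30 in controls (0.23 ± 0.41 SE, limma adjusted p 1). Robo4, a receptor of endothelium and of blood stem cells, had 3.16 and 2.56 against 2.90 and 3.03 (-0.11 ± 0.69 SE, limma adjusted p 1). Cd93, a lectin-like receptor, had 6.85 and 6.70 against 6.44 and 6.40 (0.36 ± 0.42 SE, limma adjusted p 1). For Eng and Robo4 the groups overlapped, and for Cd93 they did not, by a small margin. Thbd, the thrombin receptor thrombomodulin, lay between 0.82 and 1.13 on all 4 arrays, the sphingosine phosphate receptor S1pr1 had 1.32 and 0.56 against 0.53 and 0.71, and the apelin receptor Aplnr was well above background on none of them.

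Eltd1 and Myct1 were below both controls on both Vav-Etv2 KSL arrays. Eltd1, an adhesion G protein-coupled receptor of vessels, had 1.73 and 2.48 in Vav-Etv2 KSL cells, against 3.1 in each control (-0.99 ± 0.55 SE, limma adjusted p 0.853). Myct1, a membrane protein of endothelial and blood stem cells, had 0.53 and 0.59 against 1.77 and 1.54 (-1.10 ± 0.33 SE, limma adjusted p 0.467), and its other probe had 1.06 and 0.43 against 1.86 and 1.58. Unlike most of the list, Myct1 was alike on the 2 Vav-Etv2 arrays.

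All 4 scavenger receptors and sinusoid markers were at least 1 higher on both Vav-Etv2 KSL arrays. Stab1, a scavenger receptor of sinusoidal endothelium and of some macrophages (chr14:31952288-31952347), had 1.17 and -0.80 in Vav-Etv2 KSL cells, against -2.80 and -2.71 in controls (2.95 ± 0.88 SE, limma adjusted p 0.467). Stab2, its relative in the same vessels, had 0.33 and 0.28 against -1.03 and -1.10. Stab2 was as close between the Vav-Etv2 arrays as between the controls.

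Plvap, which forms the diaphragms of fenestrated endothelium, had 1.73 and 0.43 in Vav-Etv2 KSL cells, against -0.49 and -0.71 (1.68 ± 0.56 SE, limma adjusted p 0.551). Its other probe overlapped between the groups, with -0.34 and -1.88 against -2.20 and -0.46. Lyve1, a hyaluronan receptor of lymphatic and sinusoidal endothelium, had -1.30 and -4.89 against -6.05 and -6.06 (limma adjusted p 0.754). It was well above background on array 1 alone. By the rule for bounds it was 2.09-fold above the controls, not a strict bound because array 2 was dim.

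Among enzymes, signalling and secreted proteins, 7 of 9 were at least 1 higher on array 1 and none on array 2. Rasip1, a Ras-interacting protein needed for vessel lumens (chr7:52894134-52894193), had 3.98 and -0.81 in Vav-Etv2 KSL cells and -1.30 and -1.58 in controls (3.02 ± 1.55 SE, limma adjusted p 0.820). She, an adaptor protein, had 2.06 and -1.72 against -2.74 and -2.46 (2.77 ± 1.11 SE, limma adjusted p 0.656). Egfl7, a protein that endothelium secretes into its matrix, had 8.46 and 6.84 against 5.99 and 6.03 (1.65 ± 0.59 SE, limma adjusted p 0.587). For these 3 genes both Vav-Etv2 arrays were above both controls.

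Rhoj and Ecscr were above the controls on array 1 only. Rhoj, a small GTPase of endothelium, had 2.93 and -2.02 in Vav-Etv2 KSL cells and -1.94 and -1.65 in controls, while its other probes were well above background on no array. Ecscr, a surface regulator of endothelial chemotaxis, had 2.39 and -1.26 against -1.07 and -1.05 (1.63 ± 1.24 SE, limma adjusted p 0.972). Arap3, a GTPase-activating protein, had 4.32 and 2.56 against 2.16 and 2.31 (1.20 ± 0.68 SE, limma adjusted p 0.859). Array 2 was below both controls for Rhoj and Ecscr and just above them for Arap3. Both Vav-Etv2 arrays were also above both controls for Apold1 and Nos3. Apold1, an early response gene of endothelium, had -0.48 and -1.78 against -2.68 and -2.65, with its other probe at 0.21 and -2.08 against -3.09 and -2.72. Nos3, the endothelial nitric oxide synthase, had -0.11 and 0.17 against -0.18 and -0.21, and its other probe overlapped between the groups, with -3.16 and -1.95 against -2.35 and -2.27.

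**Figure D2:**
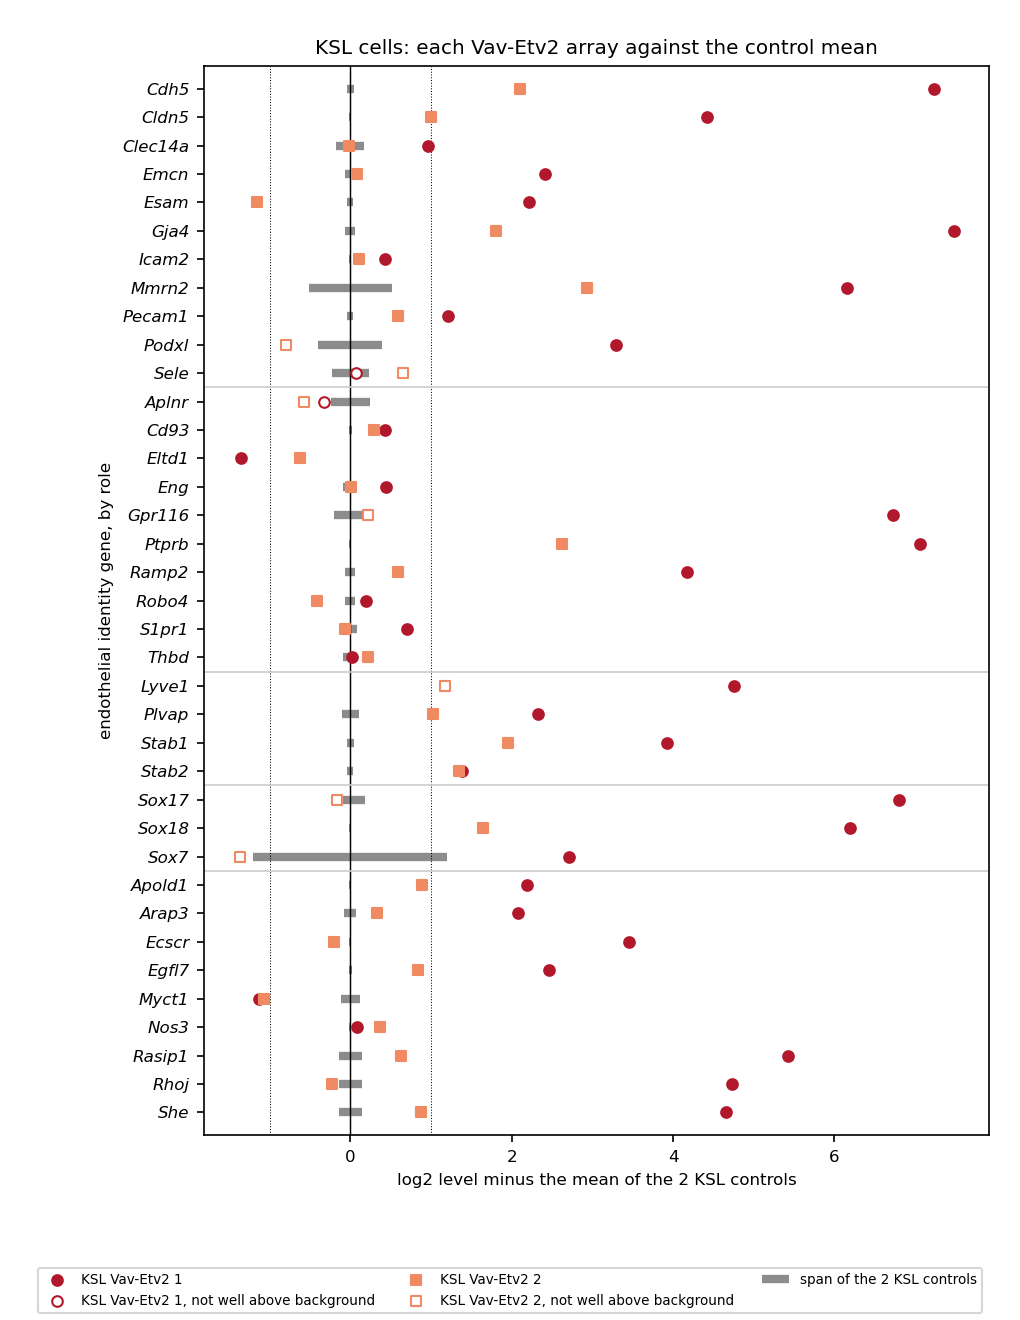
Each Vav-Etv2 KSL array minus the mean of the 2 KSL controls (log2) for the 37 genes, by role, with circles for array 1, squares for array 2, open symbols where the probe was not well above background, a grey bar for the span of the controls and dotted lines at 1 and -1. On array 1, 25 genes lie right of 1, and on array 2, 10 do.

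Promoter windows of 5 members are shown because these genes differed in how they behaved on Vav-Etv2 KSL array 1: Rasip1, Rhoj, Emcn and Cldn5 were at least 1 higher there and Robo4 was not. Each run is the 250 bases before the RefSeq start, 5′ to 3′ on the gene's strand, in build GRCm38.p6: chr7:45627287-45627536, chr12:75308063-75308312, chr3:137340828-137341077, chr16:18776597-18776846 and chr9:37401722-37401971, all on the plus strand. Capitals mark matches to an ETS form (CAGGAAG or its reverse complement CTTCCTG) or to a SoxF form (AACAAT or ATTGTT).
Rasip1: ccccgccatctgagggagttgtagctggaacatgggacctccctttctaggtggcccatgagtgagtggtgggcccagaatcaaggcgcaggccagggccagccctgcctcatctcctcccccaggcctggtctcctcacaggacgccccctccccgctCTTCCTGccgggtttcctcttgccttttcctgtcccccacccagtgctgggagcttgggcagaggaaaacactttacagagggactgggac
Rhoj: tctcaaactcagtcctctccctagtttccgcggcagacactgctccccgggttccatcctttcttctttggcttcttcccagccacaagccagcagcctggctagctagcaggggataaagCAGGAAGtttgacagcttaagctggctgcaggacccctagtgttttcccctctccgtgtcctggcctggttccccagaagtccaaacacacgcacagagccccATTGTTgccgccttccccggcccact
Emcn: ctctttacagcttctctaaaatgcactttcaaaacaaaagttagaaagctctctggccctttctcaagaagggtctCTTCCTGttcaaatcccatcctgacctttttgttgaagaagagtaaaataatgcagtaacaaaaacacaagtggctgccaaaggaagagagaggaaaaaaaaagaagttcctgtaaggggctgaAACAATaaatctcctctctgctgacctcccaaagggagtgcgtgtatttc
Cldn5: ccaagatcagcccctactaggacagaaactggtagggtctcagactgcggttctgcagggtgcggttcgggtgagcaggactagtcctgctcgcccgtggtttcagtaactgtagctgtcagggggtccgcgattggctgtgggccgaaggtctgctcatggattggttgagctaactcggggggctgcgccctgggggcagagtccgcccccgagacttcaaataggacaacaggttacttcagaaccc
Robo4: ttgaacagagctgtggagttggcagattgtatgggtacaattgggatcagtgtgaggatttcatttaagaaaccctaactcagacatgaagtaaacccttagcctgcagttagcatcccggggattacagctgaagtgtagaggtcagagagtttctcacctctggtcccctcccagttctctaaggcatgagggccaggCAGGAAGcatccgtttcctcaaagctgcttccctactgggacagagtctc
The ETS form lay in Rasip1, Rhoj, Emcn and Robo4, and the SoxF form in Rhoj and Emcn. Cldn5, at least 1 higher on array 1, had neither, and Robo4, with no such difference, had the ETS form. RefSeq's table held 20 windows of 17 members, of which 10 windows of 9 members had CAGGAAG on either strand, beside 10.8% of all 32851 windows. AACAAT was in 2 member windows, beside 9.42% of all windows, and a further ETS form, CCGGAAG or CTTCCGG, was in 0, beside 6.91%. No match overlapped another in the windows shown, and a match describes letters in the window, not a bound site.

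Other genes of the endothelial programme had differences of both signs. Of a further 60 such genes, 47 were tested and 0 passed in Vav-Etv2 against control KSL cells, with 28 positive and 19 negative differences and a median of 0.23. On array 1, 26 of the 60 were at least 1 higher and 9 at least 1 lower, beside 8.93% and 9.28% of all genes. On array 2 it was 8 and 8, beside 3.76% and 6.93%. Tspan18, a tetraspanin of vessels, had 5.43 and -0.54 in Vav-Etv2 KSL cells, against -3.89 and -4.28, not well above background, in controls. As a bound, the means differed by at least 92.3-fold (log2 difference 6.53 ± 2.21 SE, limma adjusted p 0.557). Its Vav-Etv2 arrays stood further from each other than array 2 did from the controls. The angiopoietin receptor Tek had 1.91 and -1.05 against -2.03 and -1.91, while the VEGF receptor Kdr had 3.38 and 3.13 against 3.70 and 3.1. Tek was thus separated from its controls and Kdr was not.

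The further genes include 8 transcription factors that blood cells also use, singled out after their values were seen, and these lay on both sides of the controls in KSL cells. Fli1 had 3.22 and 2.90 in Vav-Etv2 KSL cells, against 2.82 and 3.01 in controls. Erg had 1.11 and 1.64 against 2.02 and 2.14, Tal1 had 2.82 and 3.08 against 3.87 and 3.85, and Lmo2 had 5.64 and 5.93 against 6.54 and 6.43. Gata2 had 2.06 and 2.93 against 3.58 and 3.55. Erg, Tal1, Lmo2 and Gata2 were thus below both controls on both arrays. Hhex, with 3.87 and 3.88 against 3.56 and 3.57, and Lyl1, with 6.62 and 6.45 against 6.34 and 6.26, were above both controls on both. Fli1 and Ets1 (0.50 and 1.33 against 0.82 and 0.85) overlapped between the groups.

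Markers of other cell types also differed between the Vav-Etv2 KSL arrays. The 11 megakaryocyte and platelet markers, some of which endothelium shares with platelets, had a median level of 3.21 and -0.14 in Vav-Etv2 KSL cells, against -0.13 and -0.08 in controls, and their linear levels summed to 222 and 46.9 against 74.6 and 87.5. On array 1, 6 of the 11 were at least 1 higher than the control mean, among them the integrin Itga2b (4.80 and 1.51 against 0.81 and 0.98) and the platelet lectin Clec1b (4.79 and -0.14 against -1.78 and -1.47), and 2 were at least 1 lower. The platelet chemokine Ppbp was lower on array 1, with -3.82 and -2.63 against -1.26 and -1.04.

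Of the 12 granulocyte markers, 10 were at least 1 lower on array 1 and none on array 2. Of the 8 B cell markers, 6 were at least 1 higher on array 1 and 7 on array 2, with sums of 69 and 96.2 against 23.6 and 23.8. The 12 macrophage markers, which matter beside Stab1 and Lyve1, summed to 31.2 and 39.9 against 22.3 and 23.8. Csf1r weighed most in these sums (4.68 and 5.02 against 4.18 and 4.28). On array 1, Adgre1, C1qa, C1qb, C1qc and Cd5l were below both controls and the rest of the 12 were above both. KSL markers summed to 260 and 279 against 338 and 364, with Hlf at 0.45 and 2.64 against 4.64 and 4.53. The part of these lists in the members' differences was not tested. The 14 stroma and pericyte markers, which cells around vessels would bring, summed to 7.01 and 7.81 in Vav-Etv2 KSL cells, against 13.2 and 11 in controls. Of these 14, 6 and 7 were well above background on the Vav-Etv2 KSL arrays and 6 on each control, among them Lepr (2.38 and 2.05 against 2.89 and 2.29) and Pdgfrb (-0.41 and 0.83 against 1.43 and 1.56). Col1a1, Col3a1, Dcn, Lum, Pdgfra, Rgs5 and Postn were so on none of the 4. The T cell, erythroid, and mast and basophil lists had median differences from control of -1.19, -1.32 and -0.51 on array 1 and of -0.91, -0.29 and 0.05 on array 2.

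**Figure D3:**
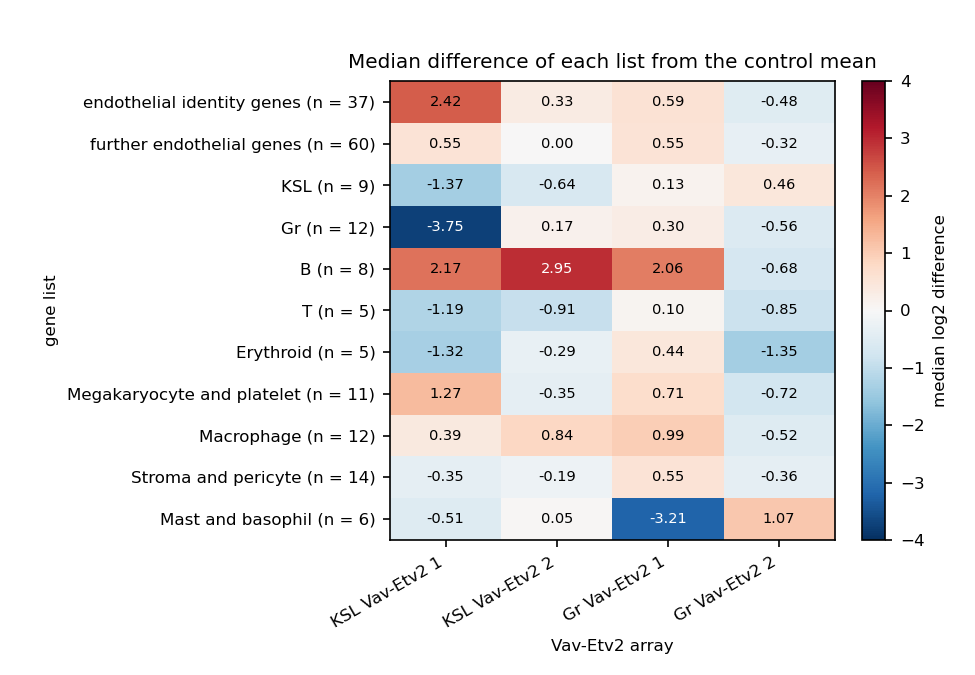
Median over each gene list of the difference between a Vav-Etv2 array and the mean of its 2 controls (log2), for the 2 KSL and the 2 Gr arrays, with the number of genes measured beside each list. The endothelial identity genes have 2.42 on KSL Vav-Etv2 1 and 0.33 on KSL Vav-Etv2 2, and the B list is above 2 on 3 of the 4 arrays.

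In Gr cells, more members were above the control mean on Vav-Etv2 array 1 and more were below it on array 2. The 2 arrays labelled control were themselves unlike. Control 1 exceeded control 2 by at least 1 for 16 of the 37 members, beside 34.3% of all genes. It was at least 1 lower for 1 member, beside 9.69%. Of the 37 members, 24 and 21 were well above background on the Vav-Etv2 Gr arrays, against 20 and 21 on those labelled control. Against the mean of the controls, 11 members were at least 1 higher on array 1 and 2 on array 2, beside 7.2% and 3.7% of all genes, and 2 and 10 were at least 1 lower, beside 2.93% and 6.82%. None of the 32 members tested had a limma adjusted p under 0.05, beside 0.00861% of all genes, and none had an unadjusted p under 0.05, which 296 of all genes had. The members' differences had a median of 0.15, with 18 positive and 14 negative.

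Since number and Xist or Ddx3y level coincided in Gr cells, values were also taken within each number. Number 1, Vav-Etv2 minus control, had 10 of 37 members at least 1 higher and 2 at least 1 lower (median 0.27), beside 7.1% and 5.2% of all genes. Number 2, where the array labelled control carried Etv2 signal, had 1 higher and 4 lower (median 0.01), beside 3.11% and 4.03%. Without the array labelled Gr control 2, the median over the members tested was 0.02.

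Cdh5 had -1.84 and -4.96 in Vav-Etv2 Gr cells, against -5.80 and -5.64 on the arrays labelled control (limma adjusted p 1). It was well above background on Vav-Etv2 array 1 alone. By the rule for bounds it was 2.44-fold higher, not a strict bound because Vav-Etv2 array 2 was dim. Sox18 had -2.60 and -6.93 against -5.40 and -7.19 (1.53 ± 1.79 SE, limma adjusted p 1), and Esam had -2.79 and -7.02 against -6.13 and -6.27 (1.30 ± 1.49 SE, limma adjusted p 1). On the 4 Gr arrays these 3 genes, and Cldn5 and Ptprb with them, were well above background on Vav-Etv2 array 1 only. Ptprb had -3.70 and -7.01 against -5.86 and -6.14, and Cldn5 had -3.35 and -6.96 against -4.79 and -5.43.

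The groups did not overlap for 5 members. Pecam1, Cdh5, Egfl7 and She were above both controls on both Vav-Etv2 arrays, beside 5.6% of all genes, and Clec14a was below them, beside 5.68%. Pecam1 had -0.77 and -0.62 against -1.03 and -0.90 (0.27 ± 0.31 SE, limma adjusted p 1), and Egfl7 had 2.23 and 1.20 against 0.75 and 1.18. She (-4.70 and -5.15 against -5.90 and -7.09, 1.57 ± 1.11 SE, limma adjusted p 1) and Clec14a were not well above background on any Gr array. So their order among Gr arrays lies within background signal.

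Other members of Gr cells showed no separation. Mmrn2 had -4.01 and -6.88 in Vav-Etv2 Gr cells, not well above background, against -1.14 and -4.94 in controls (limma adjusted p 1). Of the controls, only Gr control 1 was well above background. By the rule for bounds Mmrn2 was 2.39-fold lower, not a strict bound because Gr control 2 was dim. Eng had -1.40 and -0.54 against -1.80 and -1.16 (0.50 ± 0.41 SE, limma adjusted p 1). Robo4 had -5.81 and -3.59 against -4.88 and -4.39 (-0.06 ± 0.69 SE, limma adjusted p 1), and was well above background only on array 2 of each group. Emcn was not well above background on any Gr array (-5.41 and -6.88 against -5.99 and -6.80). Sox7 and Sox17 lay between -6.98 and -5.79 on all Gr arrays, also not well above background.

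On Vav-Etv2 Gr array 1, Tspan18 was at -1.41 (against -6.72 on array 2 and -5.76 and -6.99 on the controls). The B cell markers summed there to 27.4, against 7.20 on array 2 and 9.44 and 6.67 on the controls, and the platelet chemokine Pf4 had 3.11, against -3.24 on array 2 and 0.48 and -2.71 on the controls. The stroma and pericyte markers summed to 19.3 and 11.3 in Vav-Etv2 Gr cells, against 30.9 and 11 in controls. Of these 14, 7 and 6 were well above background on the Vav-Etv2 Gr arrays and 6 and 7 on those labelled control, among them Acta2 (3.39 and 2.46 against 4.13 and 2.52), while Col3a1, Dcn, Lum, Pdgfra, Pdgfrb, Rgs5 and Postn were so on none of the 4. The medians for T cell, erythroid, and mast and basophil lists were 0.10, 0.44 and -3.21 on array 1 and -0.85, -1.35 and 1.07 on array 2, as differences from the control mean. The part of these in the members' differences was not tested.

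**Figure D4:**
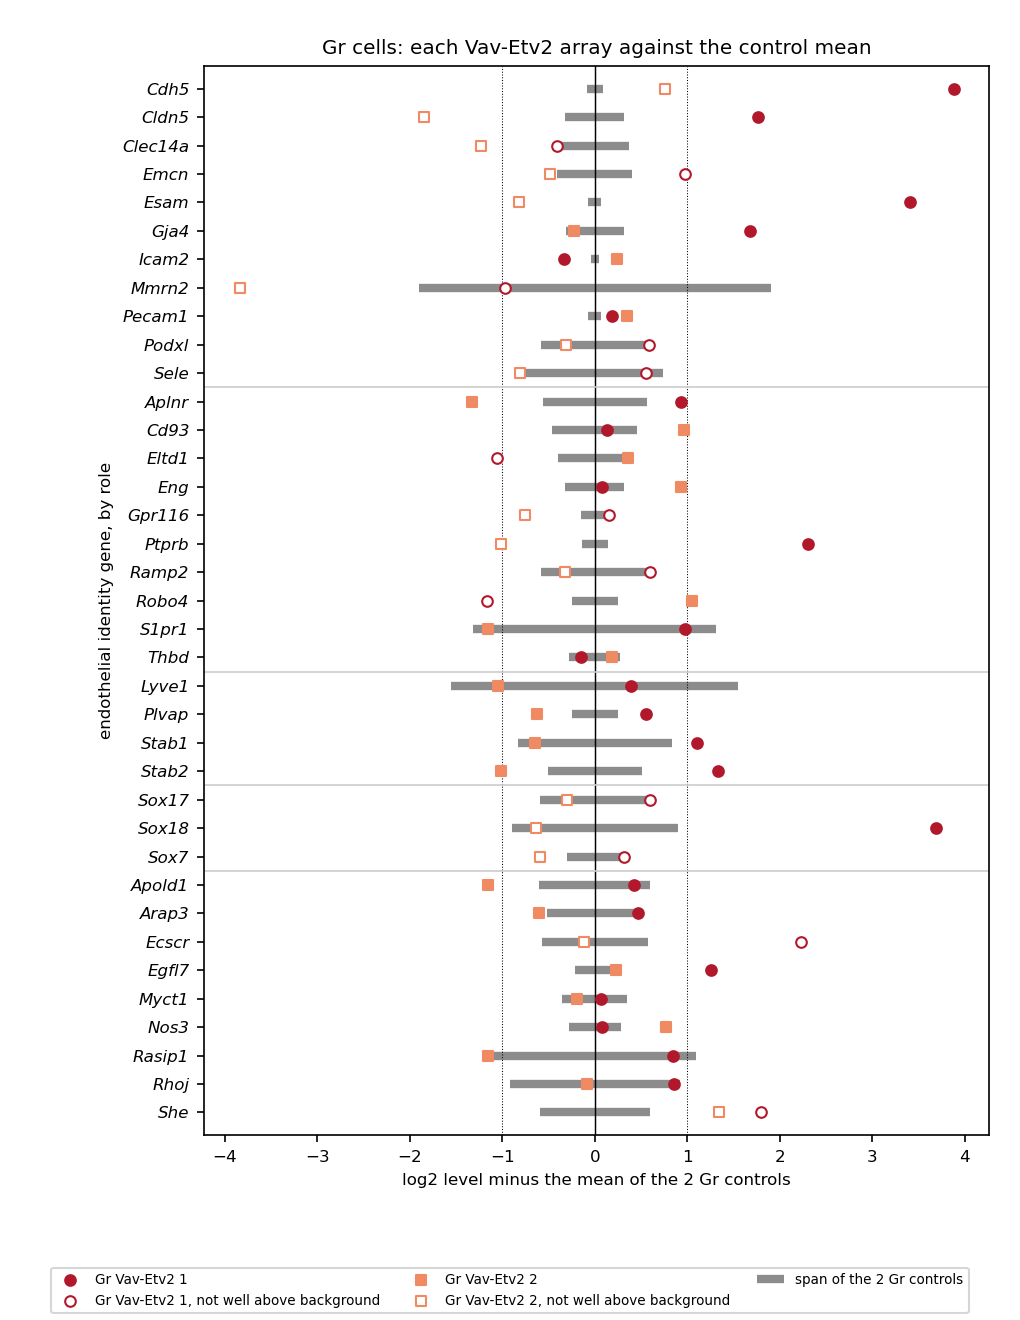
Each Vav-Etv2 Gr array minus the mean of the 2 Gr arrays labelled control (log2) for the 37 genes, with circles for array 1, squares for array 2, open symbols where the probe was not well above background, a grey bar for the span of the controls and dotted lines at 1 and -1. Cdh5 (3.88), Sox18 (3.69) and Esam (3.41) lie furthest to the right, all on array 1.

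Whether the Vav-Etv2 difference itself differed between KSL and Gr cells was tested as an interaction. None of the 32 members had a limma adjusted p under 0.05, beside 0.0043% of all genes, and 1 member and 905 of all genes had an unadjusted p under 0.05. The interaction was positive (KSL above Gr) for 24 members and negative for 8, with a median of 1.21 beside 0 over all genes. That 1 member was Mmrn2 (6.96 ± 2.27 SE, unadjusted p 0.0191, limma adjusted p 1). Without Vav-Etv2 KSL array 1 the median was 0.13.

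Between the cell types many members passed the test in both genotypes. In Vav-Etv2 mice, 18 of 32 members were higher and 2 lower in KSL than in Gr cells at a limma adjusted p under 0.05, beside 10.4% and 13.8% of all genes. In control mice, 13 were higher and 3 lower, beside 16.2% and 18.5%. Ramp2, Emcn, Ecscr, She and Clec14a, higher in both genotypes, passed the filter through KSL arrays alone and were at background on all Gr arrays. Esam, Cldn5, Mmrn2 and Ptprb were well above background on 1 Gr array each, so they too needed KSL arrays to pass the filter. They were among those higher in Vav-Etv2 mice, and Esam also in controls. Lyve1, lower in control KSL cells, needed Gr arrays to pass the filter. A filter on all 8 arrays left 15 members. Of these, 7 were higher and 2 lower in Vav-Etv2 mice, beside 1503 and 2793 of 17124 genes. In controls 6 were higher and 2 lower, beside 2548 and 3772. The medians of the differences were 3.49 in Vav-Etv2 mice and 1.85 in controls, beside -0.10 and -0.13 over all genes. With each array's median as the scale, all genes split into 2791 higher and 4978 lower in controls, in place of 3772 and 4297, and the members into 13 and 4. Leaving out either KSL control, or Gr control 1, left fewer members past the threshold in controls, and fewer of all genes too. Arap3, Cd93, Ramp2 and Esam were among those that fell short without a KSL control. Without the array labelled Gr control 2, fewer members passed, while more of all genes did. With each array left out in turn, the members' median in controls lay between 1.73 and 1.96. In Vav-Etv2 mice, fewer members and fewer of all genes passed without Vav-Etv2 KSL array 1, when the median was 2.32. The same held for the counts without Vav-Etv2 Gr array 2, when Ecscr fell short.

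Receptors were among the members with the lowest adjusted p. Robo4, whose values by array are given above, was higher in KSL cells by 7.56 ± 0.69 in Vav-Etv2 mice (SE, limma adjusted p 0.00182) and by 7.60 ± 0.69 in controls (0.00135). Eltd1 was higher in KSL cells by 5.08 ± 0.55 in Vav-Etv2 mice (limma adjusted p 0.00273) and by 5.73 ± 0.55 in controls (0.00150), with -3.68 and -2.26 in Vav-Etv2 Gr cells and -3.02 and -2.23 in control Gr cells. Eng was higher by 3.59 ± 0.41 in Vav-Etv2 mice (limma adjusted p 0.00305) and by 3.87 ± 0.41 in controls (0.00183). The KSL minus Gr values of these 3 receptors were close in the 2 genotypes. In Gr cells, Robo4 was well above background only on array 2 of each group, and Eltd1 on all but Vav-Etv2 array 1.

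Cd93, with 4.31 and 5.13 in Vav-Etv2 Gr cells and 3.72 and 4.63 in control Gr cells, was higher in KSL cells of controls by 2.24 ± 0.42 (SE, limma adjusted p 0.00999). Ramp2 was well above background on no Gr array (-5.94 and -6.87 in Vav-Etv2, -5.96 and -7.12 in control). It was higher in KSL cells by at least 55.4-fold in Vav-Etv2 mice (limma adjusted p 0.00498) and by at least 14.0-fold in controls (0.0105). Myct1, with -2.71 and -2.96 in Vav-Etv2 Gr cells and -3.13 and -2.43 in control Gr cells, was higher in KSL cells by 3.39 ± 0.33 in Vav-Etv2 mice (limma adjusted p 0.00210) and by 4.43 ± 0.33 in controls (0.000874). Egfl7 was higher by 5.94 ± 0.59 in Vav-Etv2 mice (limma adjusted p 0.00219) and by 5.04 ± 0.59 in controls (0.00249).

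Junction genes at background in Gr cells gave lower bounds. Emcn was higher in KSL cells by at least 22.1-fold in Vav-Etv2 mice (limma adjusted p 0.00436) and by at least 12.2-fold in controls (0.00547). For Esam the bound in controls was 61.3-fold (limma adjusted p 0.0121), and for Clec14a the bound in Vav-Etv2 mice was 2.20-fold (0.00656). These 3 genes were well above background on all 4 KSL arrays, and in Gr cells only Esam was, on 1 array.

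Plvap, with -2.10 and -3.28 in Vav-Etv2 Gr cells and -2.40 and -2.90 in control Gr cells, was higher in Vav-Etv2 KSL cells by 3.76 ± 0.56 (SE, limma adjusted p 0.00619). Ecscr, at background on all Gr arrays (-4.48 and -6.82 in Vav-Etv2, -6.13 and -7.28 in control), was higher in Vav-Etv2 KSL cells by at least 29.0-fold (limma adjusted p 0.0151). Cd93, Pecam1, She, Esam, Mmrn2, Icam2, Ptprb and Cldn5 were the other members higher in KSL cells of Vav-Etv2 mice, and She, Ecscr, Clec14a and Plvap were the others higher in those of controls.

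Of the members lower in control KSL cells than in control Gr cells, Arap3 had the lowest adjusted p. It had 6.39 and 5.32 in Vav-Etv2 Gr cells and 6.44 and 5.41 in control Gr cells, and was lower in control KSL cells (difference -3.69 ± 0.68 SE, limma adjusted p 0.00916). Its other probe ran the same way. Thbd and Lyve1 were the other members lower in control KSL cells, and Thbd and Arap3 were lower in Vav-Etv2 KSL cells. Lyve1 had -0.62 and -2.06 in Vav-Etv2 Gr cells and 0.54 and -2.56 in control Gr cells.

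**Figure D5:**
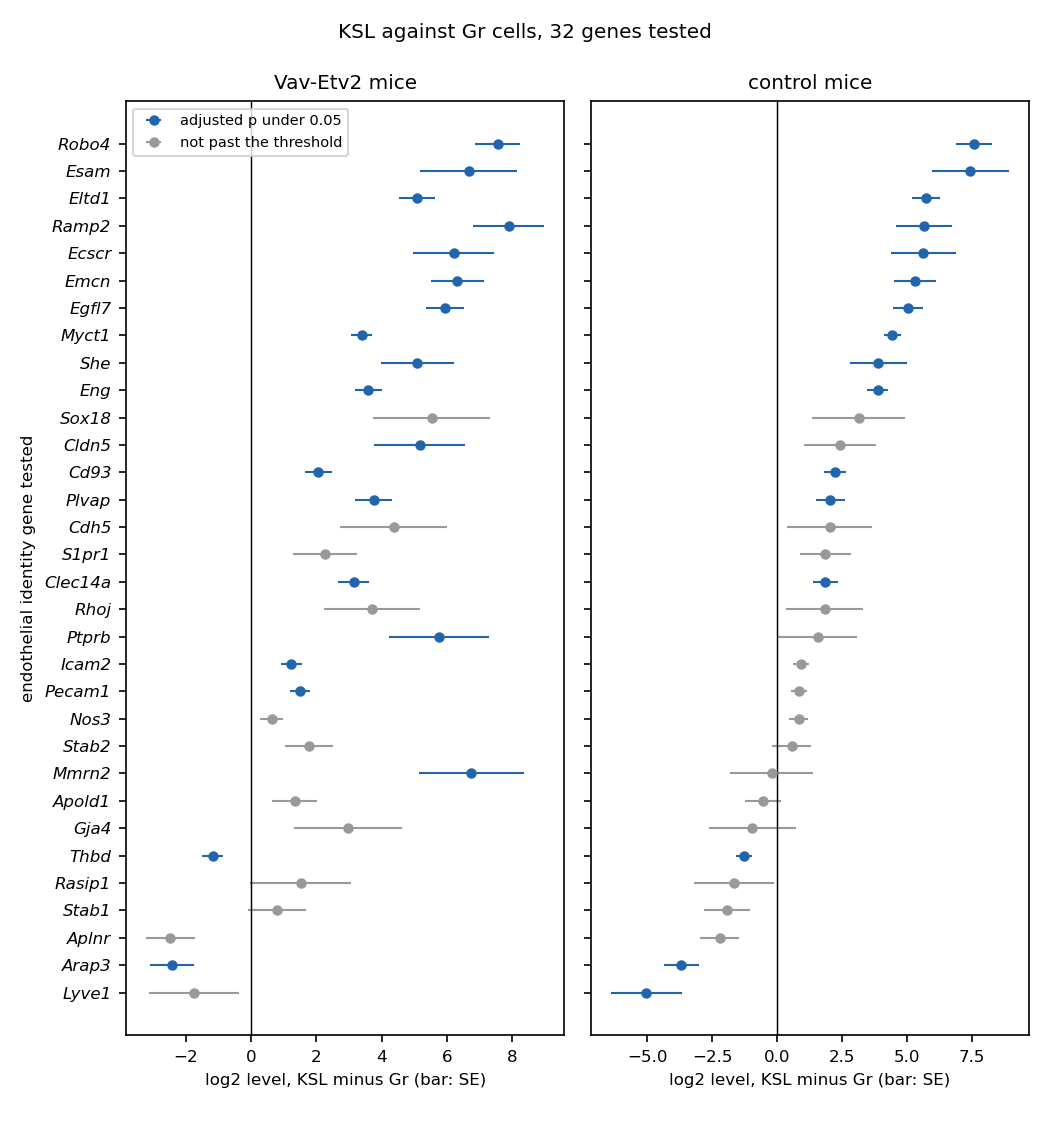
KSL minus Gr difference (log2, points, with SE bars) of the 32 members tested, in Vav-Etv2 mice (left) and control mice (right), ordered by the value in controls, with blue for an adjusted p under 0.05 and grey otherwise. Most points lie right of 0 in both panels, with 18 blue there in Vav-Etv2 mice and 13 in controls.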

How the data were processed

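Expression was measured on 8 Agilent mouse arrays of 1 colour (Cy3, labelled from small RNA amounts). Per the file headers, the deposited intensity is the processed signal of Agilent Feature Extraction 10.7.3.1 (10.7 per the submitters' processing notes), already background-corrected, with probe positions in mm9. The deposited log2 value table (column medians -0.26 to 0.291) matched, within 0.01 for 99.8% of values, the levels computed here centred on each probe's median over the 4 arrays of a cell type, and served as an alternative. Repeat spots were averaged, control spots left out, and each array's 75th percentile over 55661 probes subtracted after log2. Probes well above background on at least 2 of 8 arrays, 1 per gene by highest mean, gave 23231 genes for limma 3.58.1 (R 4.3.3). It was fitted on all arrays with 5 contrasts and Benjamini-Hochberg adjustment, and tested on simulated data. The number of arrays, 2 per group, limits the precision. Symbols were updated through RefSeq where a probe's accession or name matched (26574 probes by accession, 2600 by symbol, 491 by an older symbol, 25996 left as in the files).

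The members, the further gene list and the marker lists were chosen with earlier results of these data known. Values by array are given for members called in any comparison (at most the 10 with the lowest adjusted p in each), the 8 with the largest difference in KSL cells, the 5 in Gr cells, and 9 named ones: Pecam1, Cdh5, Esam, Eng, Emcn, Robo4, Sox7, Sox17 and Sox18; other members were added after their values were seen. Alternatives covered background, scaling, filter, floor, probes of a gene, spread, samples in the fit, replicate number and each array left out.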

Additional observations from a re-analysis of the deposited data

How the results depend on the processing

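No alternative gave a member an adjusted p under 0.05 for Vav-Etv2 against control in KSL or in Gr cells or for the interaction. The nearest was Gja4 in KSL cells without Vav-Etv2 KSL array 2, at 0.0503 by limma. In settings that kept all arrays, the members' median lay between 0.90 and 1.51 in KSL cells and between 0.02 and 0.25 in Gr cells. With each array left out in turn, it lay between 0.48 and 2.27 in KSL cells, between -0.40 and 0.72 in Gr cells and between 0.13 and 2.16 for the interaction.

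Replicate numbers are shared between genotypes, but nothing ties them to the same animal: deviations of same-numbered arrays correlated at 0.07 in KSL and 0.66 in Gr cells over genes. With a replicate block, 0 members were called in KSL cells (lowest limma adjusted p 0.13), with medians of 1.46 and 0.15 in KSL and Gr cells and 1.21 for the interaction.

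Counts between cell types depended more on the setting. For KSL against Gr cells of controls, normexp gave 10 members called and a median of 0.53 in place of 16 and 1.85, and a filter on all 8 arrays, which left 15 members, gave 8. Leaving out arrays gave 6 to 17 called and medians of 1.73 to 1.96, with 6 without either KSL control and 8 without Gr control 1. For Vav-Etv2 mice, normexp gave a median of 2.24 in place of 3.49, the filter 9 called in place of 20 and a median of 1.52, and a fit of only the arrays compared 12 called. Leaving out arrays gave 12 to 20 called and medians of 2.32 to 4.16, with 12 and 2.32 without Vav-Etv2 KSL array 1 and 13 without Vav-Etv2 Gr array 2. Emcn (limma adjusted p 0.0912) and Ramp2 (0.202) in controls and Clec14a in Vav-Etv2 mice (0.434) lost their call under normexp, and Clec14a also with a floor (0.175). Without 1 array, Arap3, Cd93, Ramp2 and Esam in controls and Ecscr in Vav-Etv2 mice lost theirs. The cause was not tested.

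Of 53 single values recomputed for 23 members, Robo4 in Gr cells turned to 0.05 under normexp and to 0.35 with a floor. With arrays left out, values crossed 0 in KSL cells for Robo4 (-0.41 to 0.19), Esam (-1.16 to 2.21), Clec14a (-0.01 to 0.96) and Ecscr (-0.20 to 3.45), and in Gr cells for Sox18 (-0.64 to 3.69), Esam (-0.82 to 3.41), Emcn (-0.48 to 0.98) and Robo4 (-1.17 to 1.05). Dim probes limit these comparisons: members at background in a group have only a bound there.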
